A study of Homo sapiens with 6 samples.

Results

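The collagen genes described here were all rows of the deposited tables whose symbol is COL, a number, A and a number, which gave 40 genes of 17160. RNA was sequenced from 6 cultured human lung adenocarcinoma lines, with 1 library per line. The parents, PC-9 and HCC827, are both known for activating mutations of the receptor kinase EGFR. PC-9GR and PC-9ER were derived from PC-9, and HCC827GR (1 label reads HCC82GR) and HCC827ER from HCC827. Resistance to inhibitors of the EGFR kinase is stated by the series text for the derived lines. GR and ER are left unexplained in the labels, which also do not state whether drug was present at harvest, and all lines shared RPMI-1640 medium with serum. No source used here says whether a derived line is 1 clone. No line has a second culture, so each difference between a derived line and its parent is a difference between 2 libraries.

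Collagens are extracellular proteins whose chains wind around each other into a helical trimer, and each type is made from its own set of chains. Fibrillar collagens form the fibers of connective tissue, fibril-associated collagens coat them, and collagen IV forms the sheet under epithelia called the basement membrane. Other collagens build beaded filaments, anchoring fibrils and networks, or span the cell membrane. In lung tissue fibroblasts make most fibrillar collagen, whereas epithelial cells contribute basement membrane chains and the collagens that fix the cell to it.

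Total counts ran from 14529332 in HCC827 to 17859787 in PC-9GR, and levels are given as CPM, counts scaled to 1000000 per library. Where no read was counted, up to 3 counts remain possible, which is 0.168 to 0.206 CPM. PC-9GR stood apart from the other derived lines, with a Spearman correlation across 16000 genes of 0.825 with its parent PC-9, against 0.97 for PC-9ER, 0.954 for HCC827GR and 0.919 for HCC827ER with theirs. PC-9GR correlated at 0.861 with HCC827, 0.868 with HCC827GR and 0.848 with HCC827ER, each above its value with PC-9. Every fold of PC-9GR over PC-9 below sits on this distance. Genes are not independent replicates, and values for PC-9GR rest on that library alone. The ER libraries came in a table of their own, so a difference between ER and any other library cannot be told apart from a difference between tables. In HCC827ER the median log2 ratio of all genes to HCC827 was -0.35 with scaling by total count and 0.01 with TMM scaling. Folds for that line are by total count and sit on this shift.

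Epithelial markers were present in every library: all 6 had at least 1 CPM, with a summed level from 5640 to 16959 CPM, although EPCAM was at 1.9 CPM in PC-9GR against 383 in PC-9. The 3 lung lineage markers listed summed to 0.56 to 43.8 CPM, and NKX2-1, which specifies lung epithelium, was at 0 in PC-9GR and HCC827ER. Fibroblast markers, where listed, summed to 44.5 CPM in PC-9GR and to 1.07 to 4.51 CPM elsewhere. Of the 11 markers, 10 were listed for PC-9GR but 7 for PC-9ER and HCC827ER, which lack PDGFRA, THY1, TCF21 and PRRX1. ACTA2 at 32.2 CPM and THY1 at 9.57 CPM made up most of the sum in PC-9GR, where DCN and FAP were at 0 and PDGFRA was at 1.06 CPM. The endothelial list added up to 220 CPM for PC-9 and 55.7 for PC-9ER, all but a little of it PECAM1 and CDH5, with KDR and TEK at 0, and to at most 0.964 CPM in the other lines. Leukocyte markers summed to 22.2 to 127 CPM, with 1 gene of the list at 1 CPM or more in each library.

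Collagen genes took 1663 CPM in PC-9, 1667 in PC-9GR, 1482 in PC-9ER, 485 in HCC827, 1352 in HCC827GR and 712 in HCC827ER. The sum was thus alike in PC-9 and PC-9GR and was highest among the HCC827 lines in HCC827GR. The chains behind the sum differed. Collagens outside the fibrillar, basement membrane and fibril-associated classes took 85.7% of the collagen counts in PC-9, 67.9% in PC-9ER and 32.5% in PC-9GR. They were chiefly collagen VI in PC-9 and PC-9ER, whereas in PC-9GR COL18A1 alone took 19.8% of the collagen counts. Basement membrane collagen took 4.15% in PC-9, 42.3% in PC-9GR, 19.7% in PC-9ER, 55.2% in HCC827, 56.9% in HCC827GR and 38.5% in HCC827ER. Fibrillar chains reached 23.5% in PC-9GR and 2.33% to 5.64% in the other 5 libraries. Fibril-associated chains took 16.1% and 16.2% in HCC827GR and HCC827ER against 1.67% in HCC827.

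**Figure D1:**
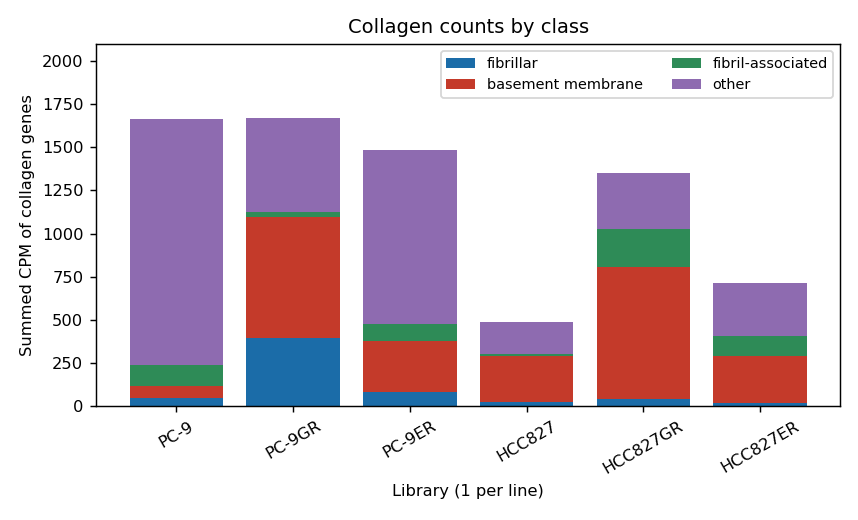
Stacked bars give the summed CPM (y axis, from 0) of the collagen genes of each class in each of the 6 libraries (x axis, 1 library per line, so no error bar). PC-9 and PC-9GR reach nearly the same height, 1663 and 1667 CPM, with the basement membrane segment at 69 CPM in the first and 706 CPM in the second.

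The largest single contributor was COL6A1 in PC-9 (49.2% of the collagen counts) and PC-9ER (35.7%). It was COL4A2 in PC-9GR (25%), HCC827 (39.1%) and HCC827GR (35.1%), and COL18A1 in HCC827ER (29.3%). Of the 40 genes, 21 had at least 5 CPM in some library, 7 more had between 1 and 5 CPM at their highest, and 12 stayed under 1 CPM in every library that lists them. Reads of bulk cultures do not separate fewer cells with a transcript from less transcript per cell.

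**Figure D2:**
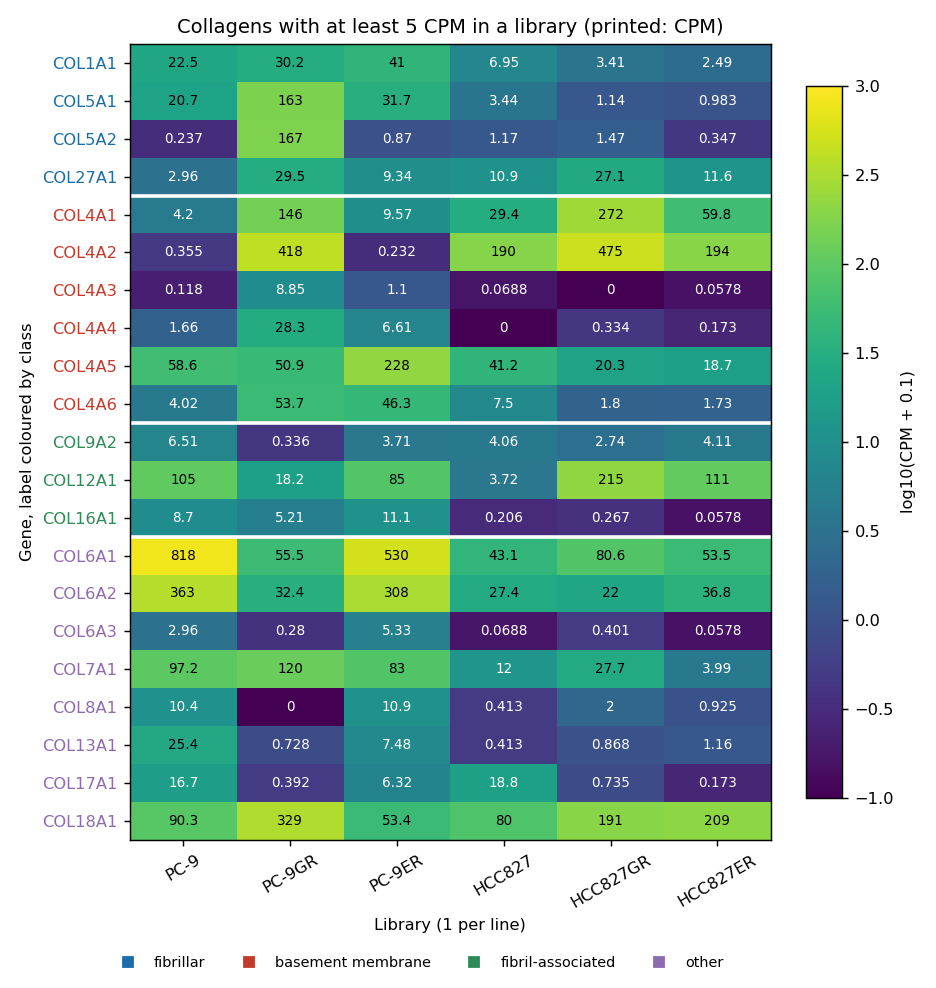
Cells give the CPM of each of the 21 collagens with at least 5 CPM in a library (rows, grouped by class) in each of the 6 libraries (columns), and colour gives log10(CPM + 0.1). COL4A2 is at 418 CPM in PC-9GR and below 0.5 CPM in PC-9 and PC-9ER, and COL17A1 is bright in both parents and dark in PC-9GR, HCC827GR and HCC827ER.

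Basement membrane collagen is built from 6 chains encoded as pairs of genes that lie head to head and start close together. COL4A1 and COL4A2 on chromosome 13 encode the common network, COL4A3 and COL4A4 on chromosome 2 join COL4A5 in the network of kidney and lung, and COL4A5 and COL4A6 lie on chromosome X. The RefSeq starts are 127 bases apart for COL4A1 and COL4A2 and 419 for COL4A3 and COL4A4. For COL4A5 and COL4A6 they are 380 or 1416 bases apart, since COL4A6 has 2 listed starts. The 300-base windows around these starts are shown because the windows of each pair overlap, that of the farther COL4A6 start excepted, while the levels of the partners, given after them, did not always go together. They are from RefSeq (GRCh38.p14), and capitals mark matches on either strand. The motifs searched were the TATA box as TATAAA, the CCAAT box by that name, the GC box as GGGCGG, the E-box known to bind ZEB and SNAIL factors as CACCTG, and the AP-1 site as TGANTCA. No match overlapped another in these windows. The windows of COL4A1 and COL4A2 overlap by 226 bases.
COL4A1 promoter (chr13:110307108-110307407, minus strand): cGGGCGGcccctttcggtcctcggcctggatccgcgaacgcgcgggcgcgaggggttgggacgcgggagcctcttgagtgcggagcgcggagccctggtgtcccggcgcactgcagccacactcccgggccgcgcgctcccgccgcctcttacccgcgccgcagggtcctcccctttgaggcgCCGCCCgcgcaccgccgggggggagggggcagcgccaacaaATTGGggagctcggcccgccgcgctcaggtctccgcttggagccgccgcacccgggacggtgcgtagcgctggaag
COL4A2 promoter (chr13:110307034-110307333, plus strand): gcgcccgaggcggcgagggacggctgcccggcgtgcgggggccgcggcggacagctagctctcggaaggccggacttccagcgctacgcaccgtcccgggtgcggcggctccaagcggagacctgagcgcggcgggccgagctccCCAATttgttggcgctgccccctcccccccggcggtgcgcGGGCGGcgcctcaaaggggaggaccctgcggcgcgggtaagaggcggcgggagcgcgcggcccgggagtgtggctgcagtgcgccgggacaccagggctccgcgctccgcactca
COL4A3 promoter (chr2:227164374-227164673, plus strand): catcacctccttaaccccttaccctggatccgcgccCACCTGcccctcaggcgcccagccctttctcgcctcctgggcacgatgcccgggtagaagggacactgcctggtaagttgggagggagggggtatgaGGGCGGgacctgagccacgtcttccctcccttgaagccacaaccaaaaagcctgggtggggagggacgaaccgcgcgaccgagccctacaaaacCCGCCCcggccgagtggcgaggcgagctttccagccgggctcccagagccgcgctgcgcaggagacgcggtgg
COL4A4 promoter (chr2:227164156-227164455, minus strand): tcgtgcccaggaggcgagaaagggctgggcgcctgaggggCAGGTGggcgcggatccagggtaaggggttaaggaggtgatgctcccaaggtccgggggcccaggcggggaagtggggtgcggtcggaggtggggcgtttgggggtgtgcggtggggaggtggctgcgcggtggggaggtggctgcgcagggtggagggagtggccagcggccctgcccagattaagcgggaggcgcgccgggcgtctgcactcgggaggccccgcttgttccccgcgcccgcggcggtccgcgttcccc
COL4A5 promoter (chrX:108439588-108439887, plus strand): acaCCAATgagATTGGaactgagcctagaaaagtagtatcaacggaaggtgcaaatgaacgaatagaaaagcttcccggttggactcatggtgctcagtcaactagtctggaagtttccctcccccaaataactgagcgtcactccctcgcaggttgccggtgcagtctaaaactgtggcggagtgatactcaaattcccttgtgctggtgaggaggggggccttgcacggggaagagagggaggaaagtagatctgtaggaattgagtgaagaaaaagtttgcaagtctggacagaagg
COL4A6 promoter (chrX:108439409-108439708, minus strand): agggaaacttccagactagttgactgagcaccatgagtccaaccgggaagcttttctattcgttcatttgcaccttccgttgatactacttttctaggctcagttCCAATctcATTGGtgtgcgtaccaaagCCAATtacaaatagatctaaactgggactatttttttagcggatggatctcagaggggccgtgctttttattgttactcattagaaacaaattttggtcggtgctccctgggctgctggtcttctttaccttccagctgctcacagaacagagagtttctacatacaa
COL4A6 promoter (chrX:108438373-108438672, minus strand): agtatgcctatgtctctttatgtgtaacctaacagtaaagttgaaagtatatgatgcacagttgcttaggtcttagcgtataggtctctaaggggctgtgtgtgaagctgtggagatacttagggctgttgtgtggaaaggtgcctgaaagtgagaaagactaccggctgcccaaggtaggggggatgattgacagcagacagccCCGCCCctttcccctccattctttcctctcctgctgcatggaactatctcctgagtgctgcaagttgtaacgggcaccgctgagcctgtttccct

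CCAAT stood in 1 place in the window of COL4A1 and of COL4A2, and the overlap of the windows means that these are the same bases read from opposite strands. One GC box of COL4A1 and that of COL4A2 are likewise the same bases. The windows of COL4A3 and COL4A4 held 1 CACCTG each, again the same bases. COL4A5 and the nearer start of COL4A6 held 2 and 3 CCAAT matches, of which 2 are the same bases, and no GC box. Over the 42 windows of the 30 collagen genes matched in the table, CCAAT was in 31% of windows, GGGCGG in 54.8%, TATAAA in 19%, CACCTG in 11.9% and TGANTCA in 2.38%. Over all 35116 windows of that length the shares were 34.6%, 45%, 11.5%, 20.6% and 7.71%. A match is a description of letters and not a bound site. Taking for each gene its window with most CpG, the 17 matched genes with at least 5 CPM had a median of 24 CpG (1 to 46), and the 7 matched genes under 1 CPM a median of 16 (3 to 45), so the ranges overlapped almost wholly.

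COL4A1 (NCBI gene 1282, chr13:110148963-110307233, minus strand, GRCh38) was higher in each derived line than in its parent. It was at 4.2 CPM in PC-9, 146 in PC-9GR, 9.57 in PC-9ER, 29.4 in HCC827, 272 in HCC827GR and 59.8 in HCC827ER. Both GR lines stood well above their parents and both ER lines by about the 2-fold mark. The ratio was 34.8 (95% counting interval 27.5 to 44.7) in PC-9GR, 2.28 (1.71 to 3.05) in PC-9ER, 9.26 (8.38 to 10.3) in HCC827GR and 2.03 (1.82 to 2.28) in HCC827ER. These exact intervals, like all that follow, cover counting error only, since they are drawn from 2 counts alone. The reads carry no molecular identifiers, so even that error may be understated.

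Its partner COL4A2 (1284, chr13:110305812-110513209, plus strand) was at 0.355 CPM in PC-9 and 0.232 in PC-9ER, which are 6 and 4 counts, but at 418 in PC-9GR. In the HCC827 lines it was at 190 CPM in HCC827, 475 in HCC827GR and 194 in HCC827ER. PC-9GR was 1176-fold above PC-9 (540 to 3206), HCC827GR 2.5-fold above HCC827 (2.39 to 2.61), and HCC827ER was at 1.02 times its parent (0.971 to 1.07). Thus COL4A1 was detected in PC-9 and PC-9ER with hardly any of its partner. Per kb of exon, the ratio of COL4A1 to COL4A2 was 20.4 in PC-9 (8.92 to 57.4) and 71.1 in PC-9ER (27.3 to 264). In the lines with both chains it was 0.604 (PC-9GR), 0.267 (HCC827), 0.988 (HCC827GR) and 0.531 (HCC827ER). The annotated gene models overlap by 1422 bases at their starts, and no source used here says whether the counting used strand, so reads there cannot be assigned with certainty.

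COL4A3 (1285) and COL4A4 (1286, chr2:227002711-227164453, minus strand) were low outside the PC-9 lines. COL4A4 was at 1.66 CPM in PC-9 against 28.3 in PC-9GR and 6.61 in the ER line, which is 17.1-fold (11.7 to 25.9) and 3.99-fold (2.62 to 6.27) above PC-9. COL4A3 went the same way, with 0.118, 8.85 and 1.1 CPM. In HCC827, HCC827GR and HCC827ER, COL4A4 had 0, 5 and 3 counts and COL4A3 had 1, 0 and 1, so no ratio of HCC827ER to its parent can be given for either.

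COL4A5 (1287, chrX:108439844-108697545, plus strand) had no common direction, with 58.6 CPM in PC-9, 50.9 in PC-9GR, 228 in PC-9ER, 41.2 in HCC827, 20.3 in HCC827GR and 18.7 in HCC827ER. PC-9ER alone stood above its parent, by 3.89-fold (3.63 to 4.17). In HCC827GR and HCC827ER the level was 2.03-fold (1.76 to 2.34) and 2.2-fold (1.92 to 2.52) lower than in HCC827, and the second no longer reached 2-fold with TMM scaling.

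COL4A6 (1288, chrX:108155607-108439497, minus strand) was at 4.02 CPM in PC-9, 53.7 in PC-9GR, 46.3 in PC-9ER, 7.5 in HCC827, 1.8 in HCC827GR and 1.73 in HCC827ER. Both lines derived from PC-9 were above PC-9, and both derived from HCC827 were below HCC827. The ratios were 13.3 (10.4 to 17.3) and 11.5 (8.98 to 15) in the first pair of lines, and the level was 4.16-fold (2.71 to 6.6) and 4.32-fold (2.86 to 6.71) lower in the second. Per kb, COL4A5 exceeded COL4A6 in 5 libraries, by 4.33-fold (PC-9ER) to 12.8-fold (PC-9), whereas in PC-9GR their ratio was 0.834 (0.761 to 0.915).

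**Figure D3:**
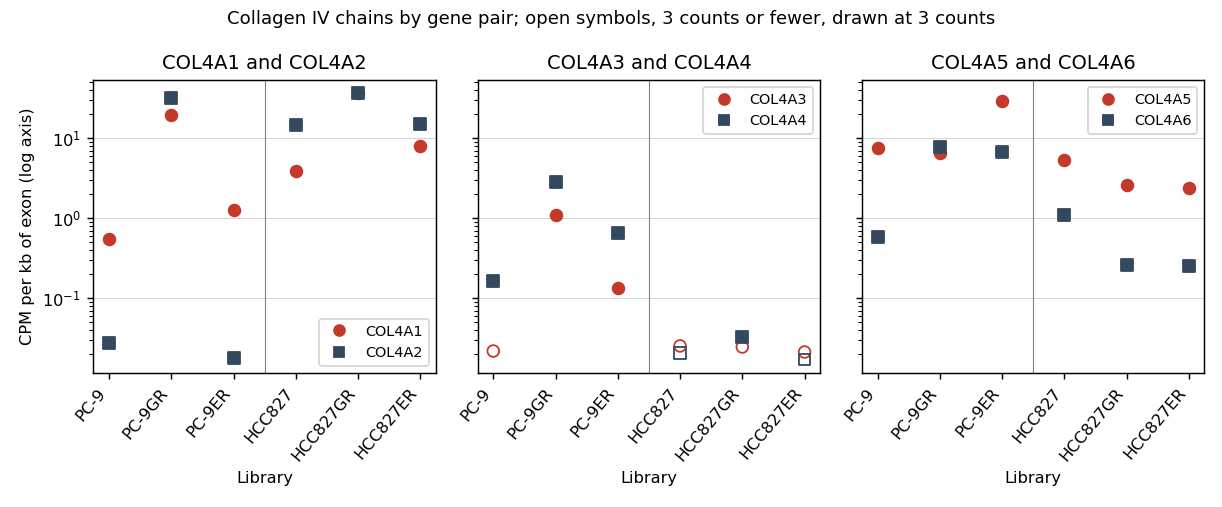
Each panel gives the CPM per kb of exon (log y axis) of the 2 chains of a collagen IV gene pair in the 6 libraries (x axis), with open symbols for 3 counts or fewer, drawn at 3 counts. The COL4A1 and COL4A2 points lie far apart in PC-9 and PC-9ER and close together in HCC827GR.

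Fibrillar collagens were led by different chains in the lines of the 2 parents. COL5A1 (1289, chr9:134641774-134844843) and COL5A2 (1290, chr2:189031896-189225312) encode the chains of collagen V, which starts and limits the growth of collagen I fibrils. COL5A1 was at 20.7 CPM in PC-9, 163 in PC-9GR, 31.7 in PC-9ER, 3.44 in HCC827, 1.14 in HCC827GR and 0.983 in HCC827ER. COL5A2 was at 0.237, 167, 0.87, 1.17, 1.47 and 0.347 CPM in the same order. PC-9GR was the one library with both chains at high level, 7.88-fold (7.05 to 8.83) and 706-fold (275 to 2593) above PC-9. Per kb the ratio of COL5A1 to COL5A2 was 72.6 in PC-9 and 30.2 in PC-9ER but 0.81 in PC-9GR. PC-9GR was also the library with the highest sum of listed fibroblast markers, 44.5 CPM with DCN and FAP at 0. The part of these markers in the collagen V values was not tested. The third collagen V chain, COL5A3, had at most 0.392 CPM.

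COL1A1 (1277, chr17:50183289-50201632), a chain of collagen I, was at 22.5 CPM in PC-9, 30.2 in PC-9GR, 41 in PC-9ER, 6.95 in HCC827, 3.41 in HCC827GR and 2.49 in HCC827ER. All PC-9 lines were above all HCC827 lines. Its partner COL1A2 had 0 to 4 counts in every library, at most 0.237 CPM, so the usual second chain of collagen I was at or near the limit of detection wherever COL1A1 was found.

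COL27A1 (85301), a fibrillar chain known from cartilage, was at 2.96 CPM in PC-9, 29.5 in PC-9GR, 9.34 in PC-9ER, 10.9 in HCC827, 27.1 in HCC827GR and 11.6 in HCC827ER. It was higher by 9.95-fold (7.44 to 13.6), 3.16-fold (2.28 to 4.43) and 2.48-fold (2.06 to 3) in the first 3 derived lines, and stood at 1.06 times its parent (0.858 to 1.32) in HCC827ER. The collagen XI chain COL11A2 ranged from 0.533 to 3 CPM, and COL24A1 was at 0 in the 3 PC-9 lines and at 0.347 to 1.47 CPM in the HCC827 lines. COL2A1, COL3A1 and COL11A1, chains of the cartilage and stromal fibrils, had at most 2 counts in the 4 libraries that list them.

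Among the fibril-associated collagens, COL12A1 (1303, chr6:75084326-75206051), whose product binds collagen I fibrils, had the most counts of the class in 5 of the 6 libraries, the exception being HCC827 with 54 counts against 59 of COL9A2. It was at 105 CPM in PC-9, 18.2 in PC-9GR, 85 in PC-9ER, 3.72 in HCC827, 215 in HCC827GR and 111 in HCC827ER. HCC827 was the one library with little of it. Both derived lines of HCC827 were far above it, by 57.9-fold (44.3 to 77.2) and 29.8-fold (22.7 to 39.8). Lines derived from PC-9 were below PC-9, by 5.78-fold (5.13 to 6.52) in PC-9GR and 1.24-fold (1.15 to 1.33) in PC-9ER.

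The remaining fibril-associated chains were low. COL16A1 was at 8.7, 5.21 and 11.1 CPM in PC-9, PC-9GR and PC-9ER and at no more than 0.267 CPM in the HCC827 lines. COL9A2, a collagen IX chain, was at 6.51 CPM in PC-9, 0.336 in PC-9GR, 3.71 in PC-9ER, 4.06 in HCC827, 2.74 in HCC827GR and 4.11 in HCC827ER, while its partners COL9A1 and COL9A3 had at most 4 counts. COL21A1 and COL22A1 reached 1.18 and 1.85 CPM in PC-9GR, from 0 counts in PC-9, which is at least 6.62-fold and 10.4-fold higher against a floor of 3 counts. Elsewhere both had at most 4 counts where listed.

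Collagen VI, the beaded filament collagen, was the collagen of PC-9 and PC-9ER. COL6A1 (1291, chr21:45981737-46005050) was at 818 CPM in PC-9, 55.5 in PC-9GR, 530 in PC-9ER, 43.1 in HCC827, 80.6 in HCC827GR and 53.5 in HCC827ER. COL6A2 (1292, chr21:46098097-46132849) was at 363, 32.4, 308, 27.4, 22 and 36.8 CPM. PC-9 and PC-9ER were thus high for both, and the other 4 lines lay at 22 to 80.6 CPM. In PC-9GR the 2 genes were 14.7-fold (13.8 to 15.7) and 11.2-fold (10.3 to 12.2) lower than in PC-9. These genes lie 93046 bases apart on the same strand, and per kb their ratio stayed between 1.51 and 3.81 in all 6 libraries. The third chain, COL6A3, was at 2.96 CPM in PC-9, 0.28 in PC-9GR, 5.33 in PC-9ER, 0.0688 in HCC827, 0.401 in HCC827GR and 0.0578 in HCC827ER, and per kb the ratio of COL6A2 to it ran from 135 in HCC827GR to 1571 in HCC827ER, the latter on 1 count of COL6A3.

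COL17A1 (1308, chr10:104031286-104085957, minus strand) encodes the transmembrane collagen of hemidesmosomes, the junctions that fix epithelial cells to the basement membrane. It was at 16.7 CPM in PC-9, 0.392 in PC-9GR, 6.32 in PC-9ER, 18.8 in HCC827, 0.735 in HCC827GR and 0.173 in HCC827ER. Both parents were alike, and all 4 derived lines lay below them without overlap. The level was 42.6-fold (20.4 to 107) lower in PC-9GR, 2.64-fold (2.11 to 3.32) in PC-9ER, 25.6-fold (14.1 to 51.9) in HCC827GR and 108-fold (36.7 to 528) in HCC827ER. Of the 6 epithelial markers, KRT7, KRT19 and CDH1 were also below the parent in each pair: KRT19 was at 1939 CPM in PC-9, 13 in PC-9GR, 1066 in PC-9ER, 2159 in HCC827, 225 in HCC827GR and 583 in HCC827ER, and CDH1 at 322, 56, 252, 616, 116 and 129 CPM. KRT8, KRT18 and EPCAM were not. KRT8 was at 3629 CPM in PC-9GR against 2568 in PC-9, KRT18 at 2447 against 1784, and EPCAM at 406 CPM in PC-9ER against 383 in PC-9. The part of these markers in the result was not tested. The promoter windows of COL12A1 and COL17A1, chosen after their values were seen as the collagens with the farthest separation of HCC827 from its derived lines in either direction, are shown in the same notation.
COL12A1 promoter (chr6:75206004-75206303, minus strand): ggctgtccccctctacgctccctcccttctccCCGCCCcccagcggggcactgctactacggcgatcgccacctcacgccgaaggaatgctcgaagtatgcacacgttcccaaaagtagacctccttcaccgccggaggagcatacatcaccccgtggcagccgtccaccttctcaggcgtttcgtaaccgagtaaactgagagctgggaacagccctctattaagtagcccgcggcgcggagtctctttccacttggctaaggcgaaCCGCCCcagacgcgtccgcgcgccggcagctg
COL17A1 promoter (chr10:104085831-104086130, minus strand): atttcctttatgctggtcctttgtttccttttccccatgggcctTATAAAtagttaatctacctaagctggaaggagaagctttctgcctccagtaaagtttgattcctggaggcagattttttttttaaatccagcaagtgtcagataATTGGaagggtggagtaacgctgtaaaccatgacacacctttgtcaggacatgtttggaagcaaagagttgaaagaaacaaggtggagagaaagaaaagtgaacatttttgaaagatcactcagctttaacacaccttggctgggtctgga

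The COL12A1 window held 2 GC boxes and no TATAAA, and that of COL17A1 held 1 TATAAA, 1 CCAAT and no GC box.

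COL18A1 (80781, chr21:45405137-45513720), a basement membrane zone collagen and the source of endostatin, was at 90.3 CPM in PC-9, 329 in PC-9GR, 53.4 in PC-9ER, 80 in HCC827, 191 in HCC827GR and 209 in HCC827ER. Derived lines other than PC-9ER were above their parents, by 3.65-fold (3.45 to 3.86), 2.39-fold (2.23 to 2.56) and 2.61-fold (2.44 to 2.79), and PC-9ER was 1.69-fold (1.56 to 1.84) lower. The related COL15A1 reached 1.51 CPM at most.

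COL7A1 (1294, chr3:48564073-48595267), the anchoring fibril collagen, was at 97.2 CPM in PC-9, 120 in PC-9GR, 83 in PC-9ER, 12 in HCC827, 27.7 in HCC827GR and 3.99 in HCC827ER. The PC-9 lines kept within a narrow range, all above the HCC827 lines, which differed from their parent in opposite directions, by 2.3-fold upward (1.92 to 2.76) and 3.02-fold downward (2.27 to 4.05). COL8A1, a network collagen, was at 10.4 CPM in PC-9, 0 in PC-9GR, 10.9 in PC-9ER, 0.413 in HCC827, 2 in HCC827GR and 0.925 in HCC827ER, so PC-9GR was at least 61.7-fold lower than PC-9. Its partner COL8A2 had at most 2 counts. COL13A1, a second transmembrane collagen, was at 25.4, 0.728, 7.48, 0.413, 0.868 and 1.16 CPM, with PC-9 the highest and the HCC827 lines at 6 to 20 counts.

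The 12 collagens under 1 CPM in every library that lists them were COL1A2, COL2A1, COL3A1, COL5A3, COL6A6, COL8A2, COL9A1, COL9A3, COL10A1, COL11A1, COL19A1 and COL20A1. The highest value among them was 0.728 CPM for COL20A1 in PC-9GR. COL26A1 was at 1.46 CPM in PC-9GR and at 0 or 1 count in the other libraries, and COL28A1 ranged from 0.112 to 1.79 CPM.

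Set against its parent, each derived line was described by the number of collagens that differed at least 2-fold (a log2 ratio of CPM of 1 or more in size, taken with 2 counts added as a prior), among those with at least 1 CPM in either library. In PC-9GR 13 of 26 collagens were higher and 8 lower, against 21.6% and 20.8% of all genes. In PC-9ER 7 of 20 were higher and 2 lower, against 5.49% and 7.6%, and all 5 basement membrane chains with 1 CPM were among the higher. HCC827GR had 8 of 19 higher and 5 lower, against 8.18% and 8.76%. HCC827ER had 4 of 18 higher and 8 lower, against 11.3% and 28.3%. With TMM scaling the last became 5 of 19 higher and 7 lower, against 18% and 18.9%. As shares of the collagens with 1 CPM, 50% were higher and 30.8% lower in PC-9GR, and 35% and 10% in PC-9ER. The shares were 42.1% and 26.3% for HCC827GR, and 22.2% and 44.4% for HCC827ER. The 10% lower in PC-9ER was close to the share of all genes. The 2 pairs of a parent share that parent's library.

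Basement membrane chains were higher in 5 of 6 cases in PC-9GR (COL4A5 was within 2-fold) and in 5 of 5 in PC-9ER. In HCC827GR they divided, with COL4A1 and COL4A2 higher and COL4A5 and COL4A6 lower, and in HCC827ER COL4A1 was higher and COL4A5 and COL4A6 lower. The median log2 ratio of this class was 4.54 for PC-9GR, 1.96 for PC-9ER, 0.15 for HCC827GR and -0.55 for HCC827ER, beside -0.01, 0.03, 0.06 and -0.35 for all genes.

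Of the 27 collagens with at least 1 CPM in some library among those listed for all 6, COL4A1 was at least 2-fold higher in all 4 derived lines, where 0.392% of all genes met that rule. COL17A1 was at least 2-fold lower in all 4, where 1.03% of all genes were. COL4A4 met the rule for higher by its log2 ratio with the prior count alone. It passed the 1 CPM minimum through the PC-9 lines, and its HCC827 pairs rest on 5 and 3 counts against 0, which is at least 1.62-fold in HCC827GR and no measured ratio in HCC827ER. With a prior count of 5 it no longer met the rule. Without PC-9GR, COL4A1 and COL17A1 met the rule in the other 3 pairs, against 0.726% and 1.46% of all genes. At any size, COL27A1 was also higher in all 4 pairs (9.81% of all genes were) and COL28A1 lower (12.3%), the latter at no more than 26 counts. Within a parent, 7 of the 27 were at least 2-fold higher in both lines derived from PC-9 (COL4A1, COL4A3, COL4A4, COL4A6, COL5A2, COL15A1 and COL27A1) and 3 lower (COL13A1, COL17A1 and COL28A1), against 3.09% and 4.01% of all genes. Of these, COL28A1 was under 1 CPM in every PC-9 line (14, 2 and 4 counts) and passed the minimum through HCC827. COL5A2 had 4 counts in PC-9 and 15 in PC-9ER and passed through PC-9GR. Neither was thus among the collagens counted for PC-9ER above. COL4A3 and COL15A1 were under 1 CPM in PC-9 (2 and 10 counts) and passed the minimum through its derived lines, where they were higher. In both lines derived from HCC827, COL12A1, COL18A1 and COL4A1 were higher, beside COL4A4 at the counts just given, and 5 were lower (COL17A1, COL1A1, COL4A5, COL4A6 and COL5A1), against 4.24% and 5.94%.

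**Figure D4:**
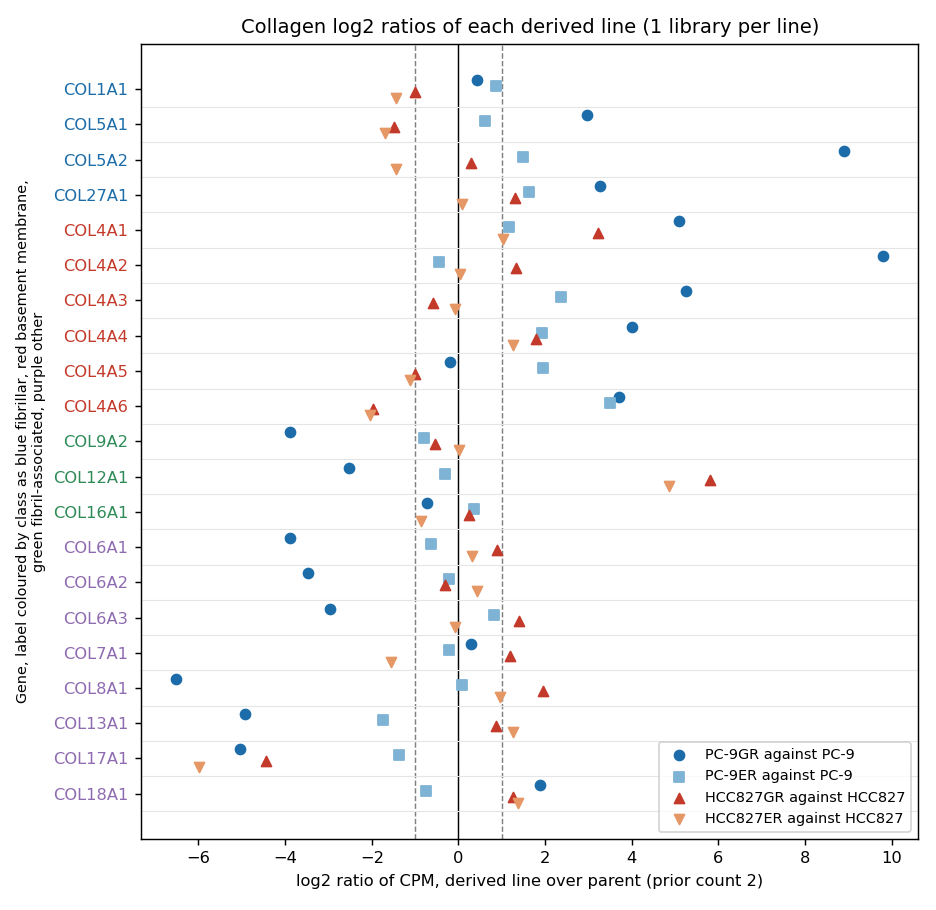
Points give the log2 ratio of CPM (x axis, prior count 2) of each derived line to its parent for the 21 collagens with at least 5 CPM in a library (y axis), with dashed lines at 2-fold either way. All 4 points of COL4A1 lie right of zero and all 4 of COL17A1 left, COL12A1 and COL4A6 separate the lines by parent, and HCC827ER points carry the shift of -0.35 seen over all genes. The HCC827 points of COL4A3 and COL4A4 rest on 0 to 5 counts.

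A test across all 6 libraries was edgeR's quasi-likelihood test, with Benjamini-Hochberg adjustment over 14234 genes. It asked whether a difference exceeded the spread between lines that each fit left. Of the 33 collagens listed for all 6 libraries, 27 passed its expression filter. All 4 derived lines were set against their parents with the line of origin as a term. The spread there holds differences between derived lines of 1 parent and any difference in response between the 2 parents. For this comparison the test called 0 collagens, and 0 genes in all. At an unadjusted p under 0.05 it had 3 collagens, 11.1% of those tested against 2.46% of all genes: COL4A4 (log2 fold change 3.66 ± 1.14 SE), COL4A1 (3.30 ± 1.32) and COL17A1 (-4.02 ± 1.33), chosen for naming after their values were seen. Each had an adjusted p of 0.997 in edgeR. Leaving out 1 library at a time moved the log2 fold change to 2.51 to 5.13 for COL4A4, 1.94 to 4.25 for COL4A1 and -5.32 to -2.31 for COL17A1. The lowest values of COL4A4 and COL4A1 came without PC-9GR, and that nearest 0 of COL17A1 without HCC827. DESeq2 also called 0 collagens, beside 0.252% of the genes to which it gave an adjusted p, and limma-voom called 0 collagens and 0 genes. Each edgeR fit without 1 library called 0 collagens.

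For the lines derived from PC-9 set against it, edgeR called 0 collagens and had 1 at an unadjusted p under 0.05, COL4A6 (3.66 ± 0.87, adjusted p = 1), beside 0.927% of all genes. DESeq2 called 2, COL4A6 and COL5A2, beside 0.825% of all genes, and limma-voom 0. Without PC-9ER the comparison is PC-9GR against PC-9 with a spread taken from the HCC827 lines alone, and edgeR then called 10 of 27 collagens and 8.65% of all genes. For the derived lines of HCC827 edgeR called 0, and 3 had an unadjusted p under 0.05, beside 1.36% of all genes: COL12A1 (5.55 ± 1.31), COL17A1 (-5.30 ± 1.75) and COL4A6 (-1.92 ± 0.69), each with an adjusted p of 1. DESeq2 called COL12A1, beside 0.311% of all genes, and limma-voom 0. In edgeR COL12A1 and COL17A1 were called without PC-9GR and again without PC-9ER, beside 1.17% and 1.09% of all genes.

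The difference between the parents, tested in edgeR as an interaction, gave 0 collagens called and 3 at an unadjusted p under 0.05, beside 0.822% of all genes. These were COL12A1 (6.57 ± 1.53 in favour of the HCC827 lines), COL4A6 (-5.57 ± 1.10) and COL5A1 (-3.81 ± 1.53), each with an adjusted p of 1. DESeq2 called COL12A1 and COL4A6, beside 0.208% of all genes, and limma-voom called 0. Without PC-9ER edgeR called 8 of 27 collagens and 3.85% of all genes.

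Between the ER and GR lines edgeR called 0 collagens, with an unadjusted p under 0.05 for COL4A1 (-2.99 ± 0.71) and COL7A1 (-1.46 ± 0.55), both at an adjusted p of 0.708, beside 6.68% of all genes. DESeq2 called COL4A1, COL4A2 and COL5A2 lower in the ER lines, beside 2.63% of all genes, and limma-voom called 0. Without HCC827GR edgeR called 7 of 26 collagens and 10.5% of all genes. This contrast cannot be told apart from the split of the libraries between tables.

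Between HCC827 and PC-9 lines, with state as a term, edgeR called 0 collagens and 0.211% of all genes, and 9 of 27 collagens (33.3%) had an unadjusted p under 0.05 against 17.6% of all genes. COL7A1 (-3.09 ± 0.47, adjusted p = 0.0813), COL4A4 (-5.93 ± 0.94, 0.0815), COL16A1 (-5.49 ± 0.99, 0.0976), COL1A1 (-2.90 ± 0.57, 0.115), COL5A1 (-4.78 ± 1.07, 0.147), COL6A2 (-2.42 ± 0.71, 0.208) and COL4A5 (-1.72 ± 0.62, 0.257) were lower in the HCC827 lines in edgeR. COL4A1 was higher in them (2.20 ± 0.57, adjusted p = 0.181 in edgeR), and COL24A1 was at 0 in all PC-9 libraries, so its fitted value is no bound. DESeq2 called 11 collagens, beside 13.6% of all genes, and limma-voom 0, beside 0.562%. In edgeR 12 of 25 were called without PC-9GR and 12 of 26 without HCC827GR, beside 17.1% and 16.5% of all genes.

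Genes that make, bind and cut collagen were read from 9 lists. No member of any list was called by edgeR between resistant and parental lines, nor was any other gene, and 2.46% of all genes had an unadjusted p under 0.05. Of the 19 chain-modifying enzymes and chaperones tested, 17 were on the higher side in that fit and 2 on the lower (median log2 fold change 0.29, beside 0.06 for all genes), with 0 at an unadjusted p under 0.05. SERPINH1, the collagen chaperone HSP47, was at 274 CPM in PC-9, 139 in PC-9GR, 303 in PC-9ER, 21 in HCC827, 44.8 in HCC827GR and 18.1 in HCC827ER, so every PC-9 line was above every HCC827 line. P4HB, a subunit of prolyl hydroxylase, was at 743, 1016, 504, 634, 560 and 1019 CPM. P4HA2, a catalytic subunit of that enzyme, was at 57.3, 68.1, 69.8, 32.4, 37.4 and 42.2 CPM, a little above its parent in each derived line.

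CRTAP, which takes part in prolyl 3-hydroxylation, was at 52.7 CPM in PC-9, 382 in PC-9GR, 89.5 in PC-9ER, 159 in HCC827, 225 in HCC827GR and 252 in HCC827ER, above its parent in each pair. FKBP14, a prolyl isomerase, was below it in each pair, at 71.8, 24.6, 40.5, 11.1, 5.41 and 6.01 CPM. P4HA3 was at 18.7 CPM in PC-9GR and at most 0.406 CPM elsewhere.

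Enzymes that cross-link collagen were on the lower side in all 7 cases in the resistant against parental fit (median -1.08, beside 0.06 for all genes). Of them 0 were called and 1, TGM2, had an unadjusted p under 0.05 in edgeR, beside 2.46% of all genes. TGM2, a transglutaminase, was at 1351 CPM in PC-9, 539 in PC-9GR, 678 in PC-9ER, 607 in HCC827, 68.9 in HCC827GR and 126 in HCC827ER. LOX, the first lysyl oxidase, was at 52.6, 1.74, 38, 2.48, 7.68 and 10.5 CPM, lower than the parent in the PC-9 pairs and higher in the HCC827 pairs. LOXL2 and LOXL3 were above the parent in PC-9ER (log2 ratios 0.08 and 0.85) and below it in the other pairs. All 7 enzymes were thus lower in the fit but not in each pair. LOXL1 was at 180 CPM in PC-9 and 0.168 in PC-9GR, with 167 in PC-9ER and 0.735 to 4.34 in the HCC827 lines.

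PXDN, the peroxidase that forms the sulfilimine bond of collagen IV, was at 624 CPM in PC-9, 310 in PC-9ER and 29 in PC-9GR, and LOXL4 at 57.8, 33.7 and 7.5 CPM. Each had 1 count in HCC827 and 0 in HCC827GR and HCC827ER. Both were called lower in the HCC827 lines than in the PC-9 lines (edgeR adjusted p = 0.0187 and 0.029). They were the 2 genes of all 9 lists so called, beside 0.211% of all genes. The HCC827 lines thus combined collagen IV chains at up to 475 CPM with PXDN at 0 or 1 count.

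Among the 8 collagen receptors tested, 1 had an unadjusted p under 0.05 between resistant and parental lines in edgeR, beside 2.46% of all genes. That gene, ITGA2, the collagen-binding integrin subunit alpha 2, was at 557 CPM in PC-9, 71.6 in PC-9GR, 96.8 in PC-9ER, 39.9 in HCC827, 10.8 in HCC827GR and 3.35 in HCC827ER. It was below its parent in each pair (log2 fold change -2.57 ± 0.43, adjusted p = 0.997 in edgeR). DDR1, a collagen-activated kinase of epithelia, was at 392, 82.3, 250, 119, 22.2 and 114 CPM, and its relative DDR2 at no more than 0.482 CPM. MRC2, an endocytic collagen receptor, was at 205 CPM in PC-9GR against 0.118 in PC-9 and 0.232 in PC-9ER, and at 4.75, 18.1 and 16.4 CPM in HCC827, HCC827GR and HCC827ER.

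The other lists held few genes with a common direction. PCOLCE2, which speeds propeptide removal, was at 7.28, 25.3, 19.1, 11.6, 28.8 and 14.4 CPM, above its parent in each pair, and SEC23A, a coat protein for collagen export, at 52.3, 195, 61.2, 49.7, 112 and 54.2 CPM. The laminin chains LAMA3 and LAMB3, part of the ligand under hemidesmosomes, were below the parent in each pair: LAMA3 was at 303, 151, 236, 216, 60.9 and 25.1 CPM and LAMB3 at 610, 9.01, 383, 461, 108 and 93.6 CPM. LAMA4, a laminin chain of vessels and muscle, was at 277 CPM in PC-9, 179 in PC-9ER and 0.056 in PC-9GR, and at no more than 1 count in the HCC827 lines.

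TNC, tenascin C, was at 160 CPM in PC-9, 0.28 in PC-9GR, 55.1 in PC-9ER, 287 in HCC827, 86.5 in HCC827GR and 126 in HCC827ER. TNXB, tenascin X, was at 14.9, 2.3, 9.85, 3.44, 0.401 and 2.31 CPM. Both were lower than the parent in each pair. Among the 9 collagenases and gelatinases tested, 4 were on the higher side in the fit and 5 on the lower, and 0 had an unadjusted p under 0.05.

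**Figure D5:**
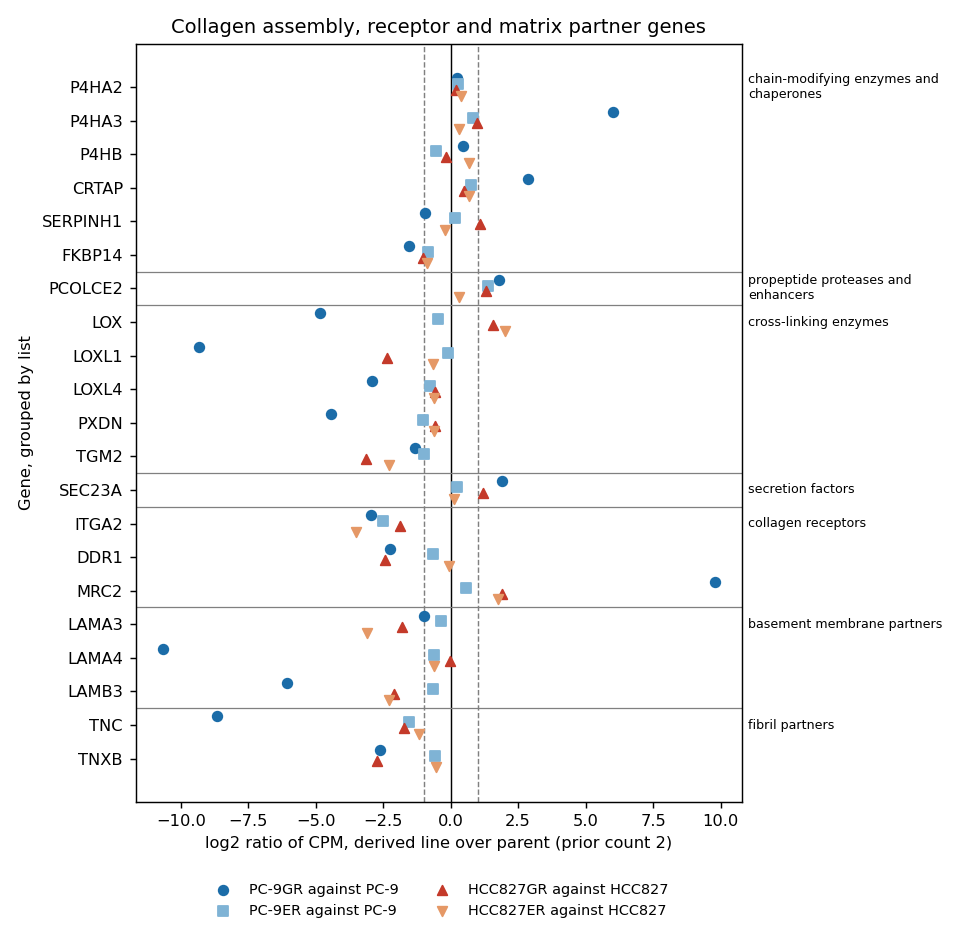
Points give the log2 ratio of CPM (x axis, prior count 2) of each derived line to its parent for the named genes of 7 lists (y axis, grouped by list), with dashed lines at 2-fold either way. ITGA2 lies left of the lower dashed line in all 4 pairs and CRTAP right of zero in all 4, while the HCC827 points of LOXL4, PXDN and LAMA4 rest on 0 or 1 count.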

How the data were processed

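Total RNA of 6 lung adenocarcinoma lines, 1 library each, was sequenced after ribosomal RNA depletion with a stranded TruSeq Ribo-Zero kit, per the labels' protocols. The authors deposited expected count values per gene, not normalized, made from reads for which the submitters' processing notes name HISAT2 2.0.4, Cuffdiff and GRCh38.p13. The counting program and its use of strand are not given in the sources used here. The first table held 4 libraries and 16854 genes, the second the 2 ER libraries and 16306, with 16000 in both. Of the 40 collagens, 33 were in both tables, COL2A1, COL3A1, COL5A3, COL6A6, COL11A1 and COL22A1 in the first alone and COL19A1 in the second alone. COL18A1 was the collagen with counts that were not whole.

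CPM used the total of each library (14529332 to 17859787 counts), and CPM per kb the union of exons in GENCODE 29 (GRCh38), the source of gene coordinates. Ratios of single pairs used a prior count of 2, have no test and carry exact 95% intervals of the 2 counts. Tests used edgeR 4.0.16 in R 4.3.3 on rounded counts, with TMM scaling, its default expression filter (14234 genes), robust quasi-likelihood fits and a threshold of 0.05 after Benjamini-Hochberg adjustment. Residual degrees of freedom were 3 for resistant against parental lines and 2 otherwise. The spread is that between lines, so p-values say nothing of repeat cultures. The edgeR test returns no SE, and the SE given is the size of the log2 fold change divided by the square root of the test's F statistic. It is unreliable for very small fitted changes and for genes without counts in a group. The script was tested on simulated data with known large fold changes, for resistant against parental lines only. Its simulated spread was far below that of these data (common dispersion 0.449 in edgeR), so it says nothing of the power of the tests here. Alternatives were RLE scaling, DESeq2 1.42.0, limma-voom (limma 3.58.1), no filter, each library left out, the line of origin left out, prior counts of 0.5 and 5, TMM-scaled ratios and a minimum of 5 CPM.

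Named were all collagens, with values in each library from 5 CPM upward, their chain partners, and from 9 further lists the members past a test and up to 4 per list with 1 direction in all 4 pairs and the largest smallest ratio, beside SERPINH1, P4HB, LOX, ITGA2, DDR1 and DDR2. One result that this rule would name is not reported here. Members and lists were chosen with earlier results of these data known. Promoter windows are from RefSeq.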

Additional observations from a re-analysis of the deposited data

Results flagged for a closer look

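In 7 of the 21 collagens with at least 5 CPM in some library, the derived lines split by parent, which is why they are listed. Both derived lines of one parent lay above it, and both of the other parent lay below theirs. The share of all genes with this split was not computed, so the count is not read as a trait of collagens. The difference between the parents was tested in edgeR as an interaction and did not pass for any of the 7 (adjusted p = 1 each). The value given is the log2 change in the HCC827 lines minus that in the PC-9 lines. COL12A1 had the highest, 6.57, with log2 ratios of 5.80 and 4.85 in HCC827GR and HCC827ER and -2.52 and -0.31 in PC-9GR and PC-9ER. COL13A1 was at 4.10, on 6 to 20 counts in the HCC827 lines, and COL6A1 at 2.25. COL4A6 was at -5.57, with 3.70 and 3.49 in the PC-9 lines and -1.98 and -2.04 in the HCC827 lines, so lines of 1 parent were close to each other. COL5A1 was at -3.81 and COL1A1 at -1.78. COL4A3 was at -6.17, but it had 0 or 1 count in each HCC827 library, where no direction is measured. Below that level COL15A1 had the same pattern, at 1 to 26 counts. Without PC-9ER, 8 collagens passed this test, among them COL12A1, COL13A1, COL4A6, COL5A1 and COL6A1 of the 7. The fit then rests on PC-9GR for the PC-9 side.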

How the results depend on the processing

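Of 105 alternatives for the counts of collagens, 90 stayed within 1.5 times the reported count and 15 moved. With DESeq2 in place of edgeR, 2 collagens were called for the derived lines of PC-9, 1 for those of HCC827, 2 for their difference, 3 between ER and GR lines and 11 between HCC827 and PC-9 lines, against 0 each, and 0 for resistant against parental lines. Leaving out 1 library at a time gave 0 to 0, 0 to 10, 0 to 2, 0 to 8, 0 to 7 and 0 to 12 called for resistant lines, PC-9, HCC827, their difference, ER against GR, and lines of origin. The highest came without PC-9ER (10 and 8), without PC-9GR or PC-9ER (2), without HCC827GR (7), and without PC-9GR or HCC827GR (12). A lone library in an arm is assumed to vary like the other lines, and without PC-9ER both arms within PC-9 are single. The derived lines of a parent could not be fitted without that parent, nor the difference without either. Line of origin served as the block, since library numbers pair nothing. With no replicate block edgeR called 0 collagens, as with it. In HCC827ER, 5 collagens were lower at a minimum of 5 CPM, against 8. In all 4 pairs, 1 collagen was higher with a prior count of 5, against 2 (COL4A1 and COL4A4). Leaving out a derived line, an alternative chosen after seeing the data like the other settings for all 4 pairs, gave 2 to 3 higher and 1 to 2 lower. Of 234 alternatives for 25 single-gene results, 196 kept direction and side of the threshold, 38 newly passed it and 0 reversed. Depth limits COL4A3 and COL4A4 in the HCC827 lines and COL4A2 in PC-9 and PC-9ER, at 0 to 6 counts.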
